A study of Mus musculus with 32 samples.

Results

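The cells described here were 66 non-myocyte, non-endothelial cells of the embryonic mouse heart, taken from 238 heart cells of the mesoderm-derived group and from 1916 single cells sequenced in all. Cells entered when the mean level of the myocyte genes Tnnt2, Actc1, Tnnc1 and Myl4 was under 4.5 and when fewer than 3 of the endothelial genes Pecam1, Cdh5, Kdr, Emcn and Esam had a level of at least 1. Level throughout means log2(TPM/10 + 1), where TPM is the authors' name for unique molecular identifiers (UMIs) scaled to a total of 1000000 in each cell, so that a level of 1 equals 10 of 1000000 UMIs. The hearts came from untreated wild-type C57BL/6J embryos, 2 each at embryonic day E9.5, E10.5 and E11.5, which were dissociated with trypsin and picked by mouth pipette without sorting. No transgene, Cre or drug was used in any group. Embryo 2 of E9.5 was labelled female and the other 5 heart embryos male, and the labels gave a HiSeq 2500 for the E9.5 hearts and a HiSeq 4000 for the later ones, so stage and sequencer cannot be told apart across the E9.5 boundary; the study's methods name the HiSeq 4000 alone.

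The outer and inner layers of the forming heart both shed mesenchyme. The epicardium is a mesothelial sheet that spreads from the proepicardium over the heart, expresses Wt1, Tbx18, Tcf21 and the retinoic acid enzyme Aldh1a2, and gives rise to fibroblasts and mural cells. Endocardial cells of the atrioventricular canal and outflow tract undergo epithelial to mesenchymal transition under BMP, TGF-beta and Notch signals, invade a hyaluronan-rich jelly and form the cushions from which valves and septa are built; cushion mesenchyme makes periostin (Postn), versican (Vcan) and the hyaluronan link protein Hapln1 and expresses Twist1, Sox9 and Msx1.

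The 66 cells were 27.7% of the heart cells of the group (95% Wilson interval 22.4 to 33.7), beside 159 cells of the myocyte class at or over the threshold and 13 endothelial-like cells. Embryo 1 of E9.5 gave 14 cells of 45, and embryo 2 gave 4 of 45. At E10.5 the 2 embryos gave 12 of 35 and 18 of 44, and at E11.5 they gave 9 of 35 and 9 of 34. The lowest share was thus 8.89% in E9.5 embryo 2 (3.51 to 20.7) and the highest 40.9% in E10.5 embryo 2 (27.7 to 55.6). The median depth was 350528 UMIs per cell (range 56763 to 2032817), and the embryo medians ran from 250178 to 1012419, with E9.5 embryo 2 the deepest. Among the 859 mesoderm-derived cells read, 6 pairs of differently named cells held identical values throughout. Of these pairs 1 lay among the 66 cells, in E11.5 embryo 2 and without the epicardial set described below, 1 in the heart's myocyte class and 4 in other organs. With identical cells counted once, an alternative chosen after seeing the data, 65 of 236 heart cells remained, 8 of 33 in E11.5 embryo 2, and the numbers of called genes are given both ways beside each comparison of all 66 cells.

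The myocyte mean that set the rule had a wide gap in its distribution, but the threshold lay below that gap. Among the 66 cells it ran from 2.58 to 4.45 with a median of 3.74. The 3 cells nearest the threshold on the inside stood at 4.45, 4.40 and 4.40, and the 3 nearest on the outside at 4.55, 4.55 and 4.57. At 7.5 or above stood 126 cells with a median of 9.42, of which 25 had at least 4 of the 8 epicardial genes defined below and 6 had at least 6. Between 4.5 and 7.5 lay 33 further cells, 25 of which carried the epicardial gene set. The choice therefore left out epicardial-set cells with a somewhat higher myocyte mean, and results that changed when these were taken in are given beside their values. Of the 66 cells, 50 had none of the 5 endothelial genes, 9 had 1 and 7 had 2.

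**Figure D1:**
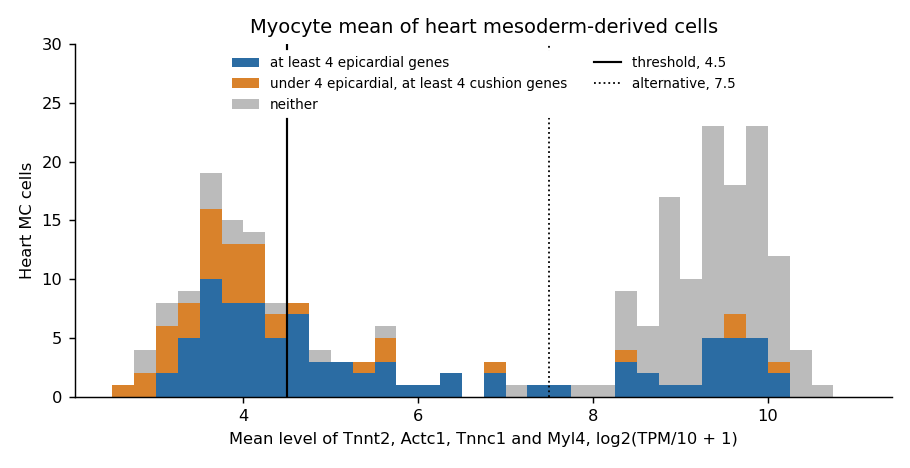
Number of heart mesoderm-derived cells (y axis) by their mean level of 4 myocyte genes in log2(TPM/10 + 1) (x axis), stacked by the gene set a cell carries, with the threshold of 4.5 as a solid line and the alternative of 7.5 as a dotted one. The 66 cells and 13 endothelial-like cells under the threshold and 33 cells between the lines lie apart from the 126 cells at 7.5 or above, and blue cells with the epicardial set continue across the solid line.

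The label of heart cushion, epicardial and other non-myocytes was checked against 8 epicardial genes (Wt1, Upk1b, Upk3b, Tbx18, Tcf21, Aldh1a2, Krt19 and Bnc1) and 8 cushion and mesenchyme genes (Postn, Cthrc1, Pdgfra, Twist1, Sox9, Msx1, Prrx1 and Snai2). A cell was said to carry a set when at least 4 of its 8 genes had a level of 1 or more. The epicardial set was carried by 38 cells, or 57.6% (45.6 to 68.8), and the cushion and mesenchyme set by 44 cells, or 66.7% (54.7 to 76.8). With identical cells counted once the shares were 58.5% and 66.2% of 65 cells. Both sets were carried by 17 cells, the cushion set alone by 27, the epicardial set alone by 21 and neither by 1. Thus 65 of the 66 cells carried one or both of the sets that the label names.

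Apart from 2 cells, the cells had either at least 6 or at most 3 of the 8 epicardial genes. Of the 66 cells, 19 had all 8 epicardial genes, 12 had 7 and 5 had 6, while none had exactly 5 and 2 had 4. At the other end 5 cells had none of the 8, 9 had 1, 9 had 2 and 5 had 3. Free RNA has to be set beside these counts: among 16 blood cells of the same hearts (median 397121 UMIs), 5 also reached 4 epicardial genes and 1 reached 4 cushion genes. The levels in blood cells were low, however, with a mean over the 8 epicardial genes of 1.79 at most, and 36 of the 38 cells with the set lay above that value. For the cushion genes the highest blood cell stood at 1.89, and 26 of the 28 cells without the epicardial set lay above it. Across the 66 cells the levels of Wt1 and Upk3b correlated at r = 0.93 and those of Postn and Cthrc1 at r = 0.76, whereas Wt1 and Twist1 correlated at r = -0.82. These correlations describe cells that share embryos, libraries and free RNA.

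The promoters of 4 genes that set the 2 kinds of cell apart are shown for orientation, Upk3b and Tcf21 from the epicardial set and Twist1 and Postn from the cushion set. Each run holds the 250 bases before the RefSeq start on GRCm38.p6, 5′ to 3′ on the gene's own strand, and capitals mark a searched motif. The uroplakin gene Upk3b (chr5:136038246-136038495, plus strand) has the TEAD core CATTCC, the basic helix-loop-helix factor Tcf21 (chr10:22820144-22820393, minus strand) has the GATA core AGATAA, and both Twist1 (chr12:33957421-33957670, plus strand) and the second Postn entry (chr3:54360857-54361106, plus strand) have TATAAA.
Upk3b: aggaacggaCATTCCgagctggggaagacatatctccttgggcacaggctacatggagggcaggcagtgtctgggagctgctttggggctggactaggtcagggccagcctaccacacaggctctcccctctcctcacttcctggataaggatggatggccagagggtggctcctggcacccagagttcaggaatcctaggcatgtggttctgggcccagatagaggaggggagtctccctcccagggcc
Tcf21: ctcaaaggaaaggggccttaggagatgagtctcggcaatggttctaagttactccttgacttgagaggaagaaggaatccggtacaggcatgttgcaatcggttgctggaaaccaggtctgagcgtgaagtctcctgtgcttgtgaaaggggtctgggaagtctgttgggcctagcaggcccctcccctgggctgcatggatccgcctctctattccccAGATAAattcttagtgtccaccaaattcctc
Twist1: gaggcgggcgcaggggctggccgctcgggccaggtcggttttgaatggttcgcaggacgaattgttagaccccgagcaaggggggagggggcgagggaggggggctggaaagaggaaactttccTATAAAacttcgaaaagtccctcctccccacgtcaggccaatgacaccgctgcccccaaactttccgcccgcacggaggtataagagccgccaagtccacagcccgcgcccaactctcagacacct
Postn: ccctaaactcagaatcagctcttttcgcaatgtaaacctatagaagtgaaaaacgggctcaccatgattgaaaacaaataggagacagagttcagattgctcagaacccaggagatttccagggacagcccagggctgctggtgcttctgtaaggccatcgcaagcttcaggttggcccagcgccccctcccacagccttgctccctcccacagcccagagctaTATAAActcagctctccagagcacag

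Of the 16 set genes, 10 had promoter entries, 5 in each set. AGATAA, searched on both strands as all the motifs were, occurred in 9.99% of 32851 RefSeq promoters of this length, and in 1 of 5 epicardial and 0 of 5 cushion genes. CATTCC occurred in 12.6% of all promoters and in 1 gene of each set. The E-box core CACCTG, the kind of element that Snai and Twist factors recognise, occurred in 17.2% and likewise in 1 gene of each set, and TATAAA in 12.4% and in 0 epicardial and 2 cushion genes. At these numbers the shares are a description of sequence only.

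Cells with and without the epicardial set differed in far more than the 8 genes that defined them. The share with the set was 6 of 14, 3 of 4, 5 of 12, 16 of 18, 5 of 9 and 3 of 9 cells in the embryos in order of stage. Both kinds numbered at least 3 cells in 4 embryos, and across these 380 of 11552 genes (3.29%) were higher with the set in all 4, with a median difference of at least 1, and 175 (1.51%) were lower. With identical cells counted once the numbers were 374 and 177. No test was made, because the set was chosen on the same cells. In E9.5 embryo 1 cells with the set had 370492 to 879895 UMIs and cells without it 56763 to 294505. In the other embryos compared these ranges overlapped, and the part of depth was not tested.

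With the set, the mesothelial program was high in every embryo. The uroplakin Upk3b, which with Upk1b marks mesothelium, had embryo means of 6.18, 6.31, 3.34, 5.37, 4.19 and 6.06 in cells with the set, against 0.11 to 0.32 in the 4 embryos with enough cells without it. Wt1, the Wilms tumour zinc finger factor, stood at 4.64, 5.27, 3.29, 4.38, 3.89 and 4.97, against 0.05 to 0.58. Both genes had served to define the set. Decorin (Dcn), a small leucine-rich proteoglycan that had not, was at 4.33, 4.83, 4.32, 6.72, 7.55 and 7.59 with the set and at 0.27 to 1.22 without it, a median difference of 5.21 (3.20 to 6.40 over 4 embryos) and the largest of all genes higher in each. The retinaldehyde dehydrogenase Aldh1a1 (median difference 2.53), the signalling antagonist Spry1 (1.96), the Notch target Hey1 (1.70) and the imprinted gene Mest (2.48) were also higher in all 4 embryos.

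Without the set, the genes of cushion matrix and transition were high. Postn had embryo means of 3.36, 5.35, 6.20 and 5.67 without the set and of 0.66 to 2.45 with it. The collagen-triple-helix protein Cthrc1 stood at 5.51, 6.46, 6.61 and 5.27 against 0.14 to 3.0, and Twist1 at 4.17, 4.45, 4.57 and 4.34 against 0.00 to 1.51. These 3 genes are from the 8 of the cushion set, and none had been used to call the epicardial set. Other cushion genes, such as Sox9 and Snai2 below, differed less. The largest difference of all was in Pdlim3, an actin-associated PDZ and LIM domain protein, at 7.61, 7.64, 6.47 and 7.49 against 0.66 to 3.26 (median difference -5.76). Vcan (-4.11), Hapln1 (-3.63), the T-box factor Tbx20 (-3.36), the growth factor Igf1 (-3.04), the Wnt effector Lef1 (-2.86), Tgfbi (-2.77) and the TGF-beta co-receptor endoglin (Eng, -2.73) were lower with the set in all 4 embryos as well.

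**Figure D2:**
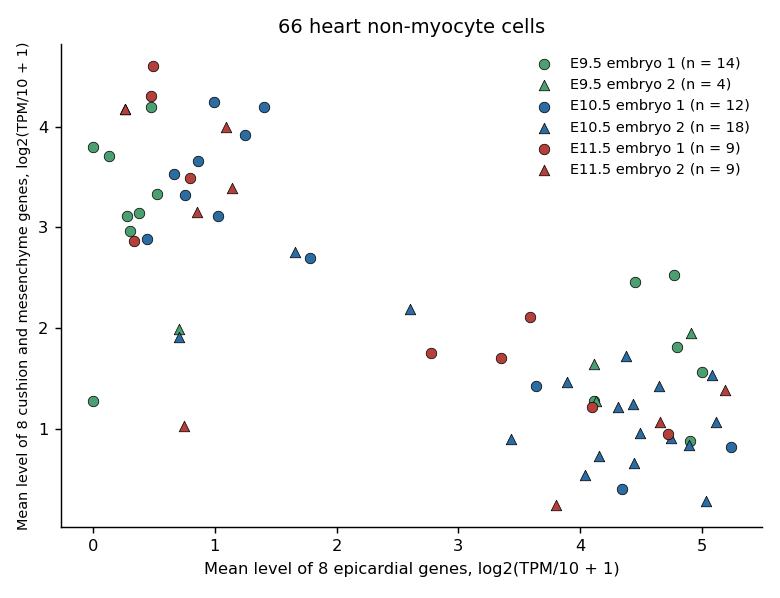
Mean level of the 8 cushion and mesenchyme genes (y axis) against that of the 8 epicardial genes (x axis), both in log2(TPM/10 + 1), for each of the 66 cells, with colour for stage and shape for embryo. Most cells lie in one group at upper left or another at lower right, and each embryo has cells with and without the epicardial set. The 1 cell of E9.5 embryo 2 without the set lies below the upper left group, at a cushion mean of 1.99.

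Several genes were shared by the 2 kinds of cell. Sox9, a factor of cushion and cartilage precursors, stood at 4.25 on average over embryos with the set and 4.90 without, and the matrix protein fibulin-2 (Fbln2) at 4.83 and 4.63, against 0.90 and 0.80 in myocytes at or over 7.5. The zinc finger factor Gata4 stood at 3.5 and 4.40, against 2.52 in these myocytes and 0.70 in heart blood cells. The epithelial to mesenchymal factor Snai1 was lower with the set than without (1.07 and 3.11), whereas its relative Snai2 stood at 1.65 and 1.90.

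Endothelial-like heart cells, which could be averaged in the 2 E9.5 embryos only, held part of the cushion pattern. Their Hapln1 mean was 6.47, and Tbx20 stood at 3.96 and Gata4 at 4.20. Cells without the epicardial set had the same Hapln1 mean, but over E9.5 embryo 1, E10.5 embryo 1 and both E11.5 embryos, so the stages differ. Postn (0.95) and Cthrc1 (0.92) were low in the endothelial-like cells. Endocardial transcripts were in turn highest in the 14 cells of E9.5 embryo 1: 10 endothelial and endocardial genes outside the rule summed to 16.1 there and to 5.65 to 11.6 in the other 5 embryos, with Cldn5 at 0 in all 66 cells. The part of endocardial cells in the E9.5 values was not tested.

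Myocyte transcripts in the 66 cells were mostly at or below the level of the heart's blood cells. The rule gene Actc1 had a mean of 4.62 with the epicardial set and 4.66 without, against 6.06 in the 16 blood cells and 10.55 in myocytes at or over 7.5. The atrial light chain Myl7, which the rule did not use, was an exception: cells with the set had embryo means of 7.71, 7.48, 7.22, 8.04, 6.79 and 8.83, all above the blood cell mean of 6.13, and cells without it had 4.37, 4.53, 4.31 and 3.90. Of other cell types, 6 second heart field genes summed to 0.52 at most, 6 epithelial genes to 0.56 and 6 hepatoblast genes to 0.99, with Eya1, Alb and Hnf4a at 0. Smooth muscle transcripts were present: 5 genes summed to 7.02 to 13.4, against 10.2 in the blood cells, with only Myh11 at 0. In myocytes at or over 7.5 they summed to 23.4 to 27.2. Blood genes summed to 11.7 to 15.3, against 33.7 in the blood cells.

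**Figure D3:**
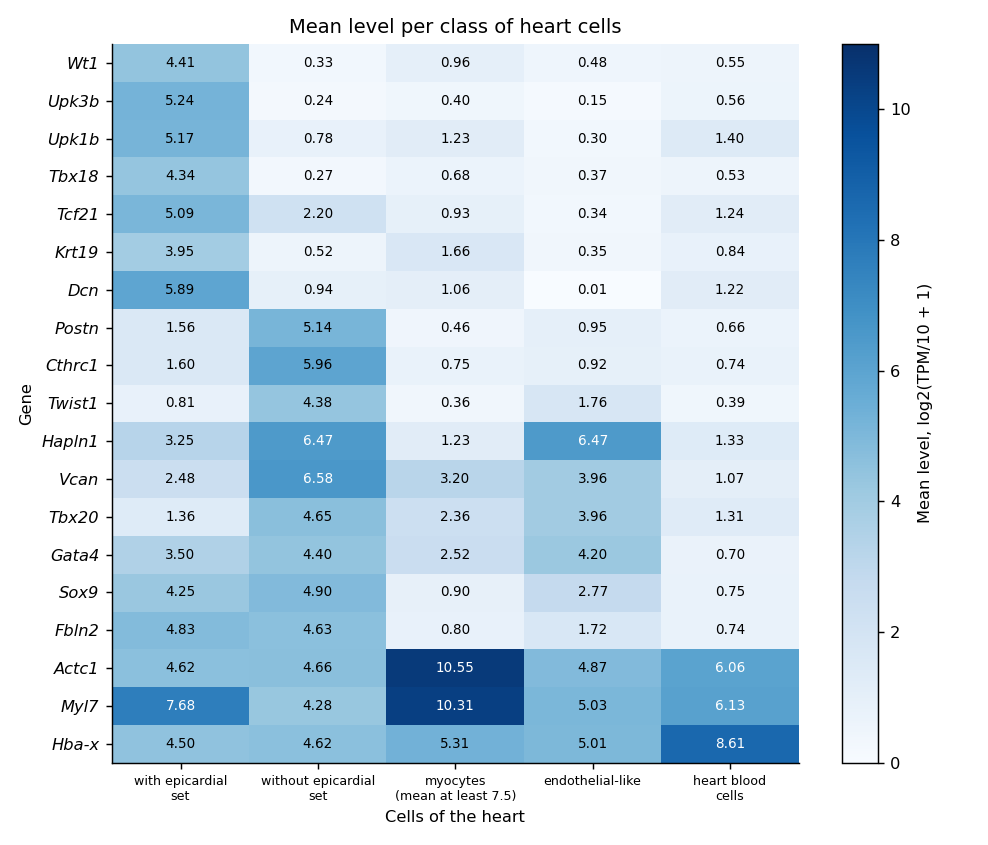
Mean level in log2(TPM/10 + 1) of 19 genes (rows) in 5 classes of heart cells (columns), as a mean over embryo means except for blood cells, where it is a mean over 16 cells. Wt1 to Dcn are darkest in cells with the epicardial set, Postn to Twist1 in cells without it, and Sox9 and Fbln2 in both.

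Against the whole myocyte class, 519 of 13464 genes (3.85%) were higher in the 66 cells in all 6 embryos with a median difference of at least 1, and 179 (1.33%) were lower. This contrast is the one the rule used and is given without a test. The largest median differences were those of Fbln2 (3.46, from 1.99 to 4.21 over embryos), the heparin-binding cytokine Ptn (3.36), Sox9 (3.05), the BMP target Id3 (2.89), Tagln2 (2.71), Hapln1 (2.65), the collagen Col1a2 (2.64) and the galectin Lgals1 (2.63). Tcf21 (2.49), Cdh11, the mesenchymal cadherin (2.43), and Ccnd1 (2.43) followed. The myocyte class included the cells between 4.5 and 7.5, and 994 genes were higher when only myocytes at or over 7.5 were compared; with identical cells counted once the number against the whole class was 527.

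To ask what is particular to the heart among embryonic mesenchymes, the same 2 thresholds were applied to mesoderm-derived cells of the intestine (90 cells), lung (141), skin (91) and somite (181). Heart embryo means were compared with the mean of these 4 organs by limma, with 6 heart and 26 other embryo means. Of 15179 genes 497 (3.27%) were called: 404 (2.66%) were higher in the heart and 93 (0.613%) were lower (adjusted p under 0.05 and a difference of at least 1), and the median difference of all genes was 0.00. With identical cells counted once 504 genes were called, 490 of them shared with the 497. The shares with the epicardial set were 3 of 90 cells in the intestine (3.33%) and 1 of 141 in the lung (0.709%). In the skin it was 0 of 91 cells, which allows a share of up to 3.30%, and in the somite 0 of 181, which allows up to 1.66%. The cushion set was no heart property by this measure, being carried by 77 of 91 skin cells (84.6%) and 99 of 181 somite cells (54.7%).

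Cardiac transcription factors were among the genes higher in the heart cells. Gata4 stood at 4.93, 3.42, 3.85, 3.28, 3.48 and 3.86 in the 6 embryos and between 0.00 and 1.48 in the 26 others, a difference of 3.58 ± 0.17 (SE; adjusted p = 1.36e-17). Gata6 ran from 2.45 to 3.59 against 1.05 at most (2.89 ± 0.15), and Tbx20 from 1.31 to 3.97 against 0.49 at most (2.64 ± 0.20). For these 3 genes the heart embryos did not overlap with those of the 4 organs compared; the liver, which was not compared, is described below. Hand2, a basic helix-loop-helix factor of heart and limb, was higher by 2.62 ± 0.22 and Gata5 by 1.60 ± 0.14, both with ranges that met those of single embryos elsewhere. Of 20 cardiac and lateral mesoderm factors tested these 5 were higher and 5 were lower, with a list median of -0.18.

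The 5 lower factors are known from other mesenchymes. The forkhead gene Foxf1, a factor of gut and lung mesoderm, had 0 UMIs in all 66 heart cells, which allows a share of up to 4.55% of cells with a UMI, and a mean level of 3.5 in the intestine and 3.47 in the lung (difference -1.75 ± 0.19, adjusted p = 1.33e-08). Hoxa5 likewise had 0 UMIs in the heart cells (-1.12 ± 0.22). Osr1 (-1.45), Nr2f1 (-1.50) and Nr2f2 (-1.40) were also lower. Among all genes the largest negative difference was that of the retinoic acid binding protein Crabp2, at 1.03, 1.81, 0.09, 0.67, 0.02 and 0.15 in the heart and at 0.74 to 6.89 elsewhere (-3.29 ± 0.39, adjusted p = 8.53e-08). Pdlim4 (-2.76), the progenitor factor Sox11 (-2.37), Cd24a (-2.29), the secreted Wnt modulator Sfrp2 (-1.97) and Igfbp2 (-1.93) followed among the named genes.

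Several matrix genes were higher in the heart cells. Hapln1, which stabilises hyaluronan and versican aggregates, stood at 5.52, 4.80, 6.01, 3.63, 3.54 and 4.58, above the 3.09 that the highest other embryo mean reached, with a difference of 3.94 ± 0.28 (adjusted p = 3.39e-13). Fbln2 ran from 3.85 to 5.22 against 3.65 at most (3.86 ± 0.23) and fibronectin (Fn1) from 5.52 to 6.56 against 3.74 at most (3.19 ± 0.26). Of 39 matrix genes other than collagens, 11 were higher and 1 was lower, with a list median of 0.58 beside 0.00 for all genes. Collagens did not share this: of 17 tested, the basement membrane genes Col4a2 and Col18a1 were higher, Col23a1 and Col26a1 were lower, and the median was 0.04.

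Of the 8 epicardial genes, 6 were higher in the heart, led by Upk1b (2.16 to 4.95 against 0.40 at most; 3.17 ± 0.24), Upk3b (3.01 ± 0.29) and Wt1 (1.62 to 4.04 against 0.75 at most; 2.56 ± 0.24). Of 15 other epicardial genes 9 were higher and 0 were lower. Of the 8 cushion genes 3 were higher, namely Postn (2.37 ± 0.31), Sox9 (2.42 ± 0.41) and Cthrc1 (1.41 ± 0.39). The embryo ranges of Postn and Cthrc1 met those of other organs, and Cthrc1 was at a difference of -0.22 when only heart cells with the epicardial set were used.

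Over all genes 2.66% were higher and 0.613% lower. Among signalling genes, 9 of 27 TGF-beta and BMP pathway genes were higher and 0 were lower, with a list median of 0.34. They comprised the ligands Tgfb2 (1.82 ± 0.35) and Bmp2 (1.05), the co-receptor Eng (1.77 ± 0.20), the latency protein Ltbp1 (1.37), the feedback inhibitors Bambi (2.71 ± 0.30) and Smad6 (1.78) and the targets Id1 (1.70), Id2 (2.06) and Id3 (1.86 ± 0.31). Bambi stood at 4.37 to 5.28 in the heart and at 3.80 at most elsewhere. In the insulin-like growth factor axis 5 of 17 genes were higher, among them Igf2 (1.87 ± 0.31), H19 (2.04 ± 0.32), the clearance receptor Igf2r (1.93 ± 0.28) and Igfbp7 (1.78 ± 0.17), and Igfbp2 was lower. The list median of this axis was 0.63. The call on Id1 was lost in 4 of 6 fits that left out 1 embryo each, that on the imprinted growth inhibitor Cdkn1c in 3, those on Bmp2 and Cthrc1 in 2 each and that on Col4a2 in 1. With epicardial-set heart cells only, the calls on Id1, Eng, Smad6, Ltbp1 and Igfbp7 were lost. With the other heart cells only, those on Id1, Tgfb2, Bmp2, Cdkn1c, Col4a2, Hey1 and Aldh1a1 were lost. Of 19 PDGF and FGF genes and 12 smooth muscle genes 0 were called, of 22 Wnt genes only Sfrp2, of 10 Notch genes only Hey1 (1.63 ± 0.22), and of 15 retinoic acid genes Aldh1a1 was higher (2.03 ± 0.19) and Crabp1 and Crabp2 were lower.

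**Figure D4:**
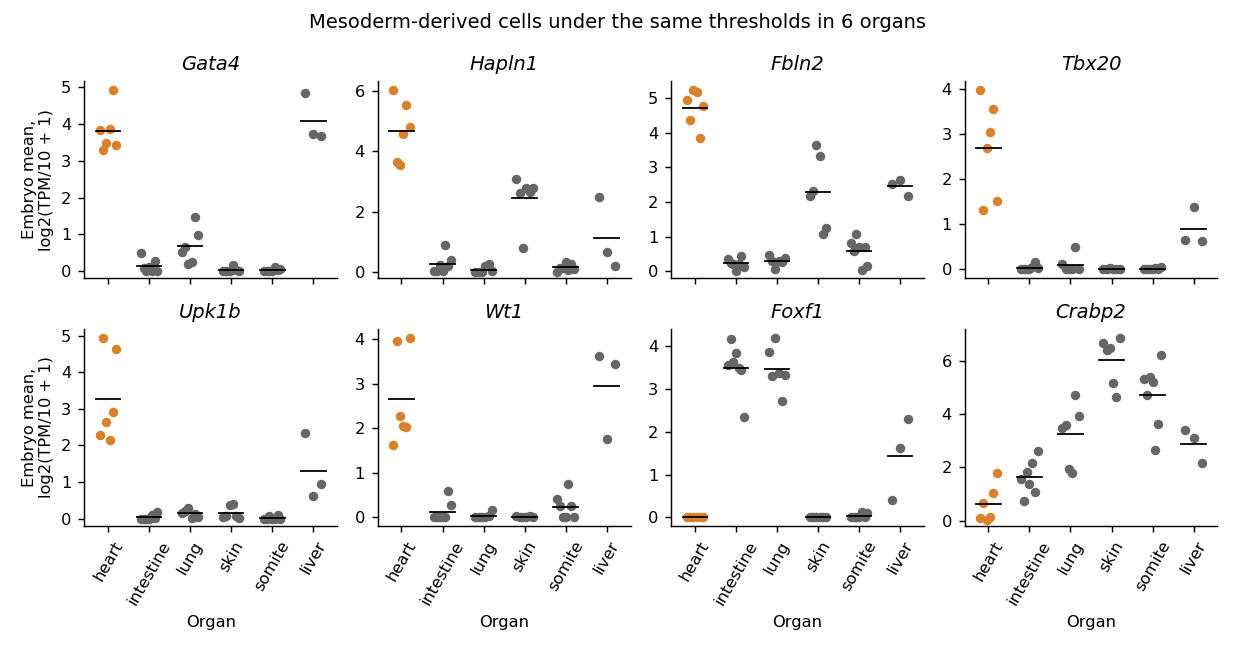
Embryo means in log2(TPM/10 + 1) (y axes) of 8 genes in mesoderm-derived cells under the same thresholds in 6 organs (x axes), 1 point per embryo, with the organ mean as a bar. Gata4, Hapln1, Fbln2, Tbx20, Upk1b and Wt1 are higher in the 6 heart embryos than in intestine, lung, skin and somite, and Foxf1 and Crabp2 have lower means there.

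The called genes also held transcripts of neighbouring cells. Of 12 myocyte genes outside the rule 7 were higher in the heart cells, with Myl7 (5.57 ± 0.31) the largest difference of all, and the embryonic globin Hbb-y (3.64 ± 0.78) was higher too. Tek, Eng and Egfl7, 3 of 10 endothelial and endocardial genes outside the rule, were higher as well. In the heart's blood cells Myl7 stood at 6.13 and Hbb-y at 9.73. Their part in other differences was not tested. The liver was left out of the contrast because nearly all of its cells came from E9.5: the 3 E9.5 embryos gave 16, 25 and 23 cells and the 2 E10.5 embryos 2 and 1. It had the epicardial set in 39 of 67 cells (58.2%), with means over the E9.5 embryos of 4.08 for Gata4, 3.36 for Gata6 and 2.94 for Wt1, beside heart means of 3.80, 3.10 and 2.66. With the liver in the mean of the other organs 407 genes were called, 394 of them shared with the 497. Bmp2, Cdkn1c, Sema3d and Top2a were among the genes that lost their calls.

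To follow the cells through the stages, a slope per embryonic day was fitted to the 6 embryo means by limma. Of 11552 genes 151 (1.31%) were called: 35 (0.303%) rose and 116 (1.0%) fell at an adjusted p under 0.05 and a slope of at least 0.5 per day, while the median slope of all genes was -0.08. The genes that rose were led by fibrillar matrix. The lumican gene Lum, a proteoglycan that spaces collagen fibrils, stood at 0.24 and 0.00 at E9.5, 1.34 and 2.97 at E10.5 and 3.19 and 4.58 at E11.5, a slope of 1.88 ± 0.27 per day (adjusted p = 0.0015). The type I collagen gene Col1a1 rose from 0.67 and 1.84 through 3.41 and 4.17 to 4.72 and 4.63 (1.71 ± 0.25, adjusted p = 0.0015), and Col3a1 from 2.95 and 2.62 through 4.91 and 3.95 to 5.79 and 5.76 (1.49 ± 0.19, adjusted p = 0.0011). For all 3 genes the E9.5 embryos lay below the other 4, and these were the only genes named for this fit whose call held in each of the 6 fits that left out an embryo.

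Other matrix and mesenchymal genes rose with them. Matrix Gla protein (Mgp), an inhibitor of calcification, stood at 0.21, 0.02, 1.78, 1.77, 4.74 and 2.77 in order of stage (1.82 ± 0.26), elastin (Eln) at 0.00, 0.00, 0.25, 0.02, 1.84 and 1.59 (0.86 ± 0.18) and Cdh11 at 2.47, 3.08, 4.14, 4.68, 4.98 and 4.89 (1.08 ± 0.21). Of 16 collagens tested, 3 rose (Col1a1, Col3a1 and Col1a2) and 0 fell, with 14 slopes positive and a median of 0.45. Of 39 other matrix genes 3 rose (Lum, Eln and Mgp), and the collagen chaperone Serpinh1 fell by 0.79 per day.

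The genes that fell included a cyclin and a fetal RNA-binding protein. Cyclin D2 (Ccnd2) stood at 6.71, 6.96, 5.20, 7.17, 3.64 and 4.57 (slope -1.37 ± 0.24), and the 2 E11.5 embryos lay below the other 4. The fetal RNA-binding protein Igf2bp1 stood at 4.93, 5.27, 2.94, 3.31, 1.67 and 2.96 (-1.39 ± 0.23), with both E9.5 embryos above the rest. The YAP target Cyr61 (-1.67 ± 0.28), the keratin Krt8 (-1.44 ± 0.33) and the zinc finger factor Klf6 (-1.29 ± 0.23) also fell. Of 27 cell cycle genes 0 rose and 3 fell (Ccnd1, Ccnd2 and the inhibitor Cdkn1c), with 26 slopes negative and a list median of -0.42 beside -0.08 for all genes. The 9 dissociation stress genes tested had a median slope of -0.66 with 0 called, and the list's summed level was 15.8, 35.2, 20.9, 25.8, 11.1 and 13.5 in the embryos, highest in E9.5 embryo 2; the part of stress in the falling genes was not tested.

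No gene of either identity set had a called slope, which in 6 embryos does not show that none changed. Of the 8 epicardial genes 2 had positive slopes (median -0.52) and of the 8 cushion genes 7 (median 0.32), beside 35.2% of all genes and a median of -0.08. The shares of cells with each set differed between embryos of one stage, as given above. Of 8 EMT factors, 25 TGF-beta and BMP genes, 20 Wnt genes, 8 Notch genes, 15 PDGF and FGF genes and 10 smooth muscle genes 0 were called as well, and the 10 smooth muscle genes had 0 positive slopes and a median of -0.24. An embryo mean over these cells moves both with the mix of cells and with the level in each kind, which cannot be told apart in it.

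**Figure D5:**
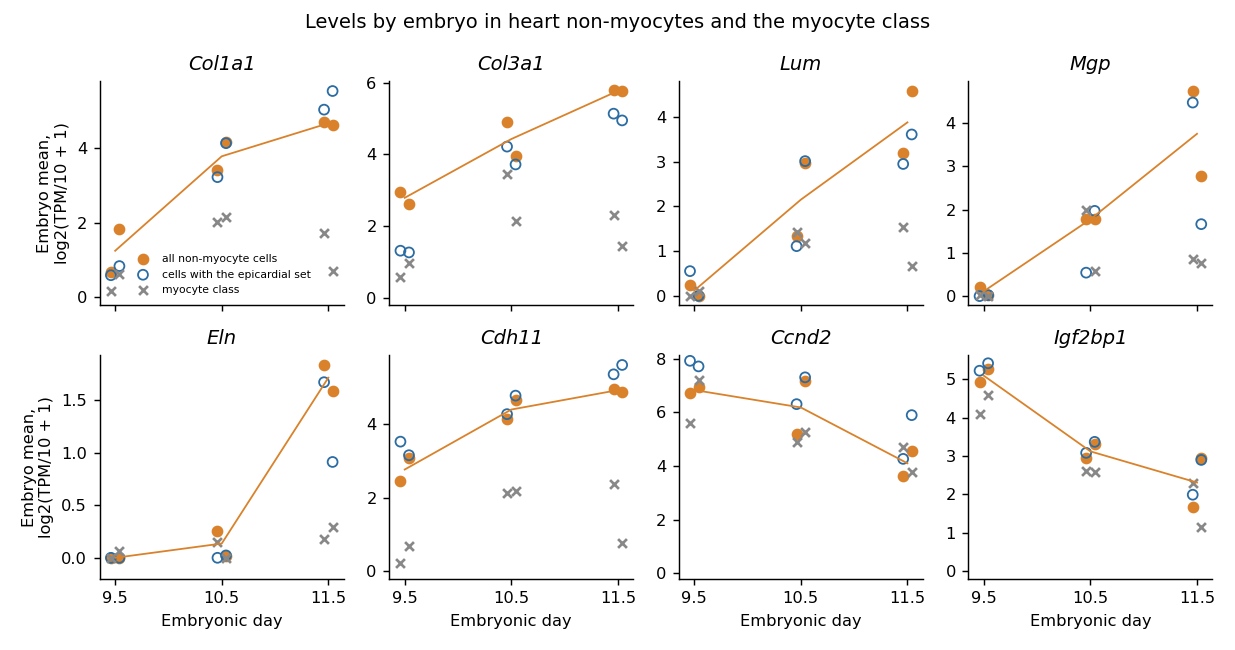
Embryo means in log2(TPM/10 + 1) (y axes) of 8 genes by embryonic day (x axes) in all 66 cells (filled points, with a line through stage means), in cells with the epicardial set (open circles) and in the myocyte class (crosses). Col1a1, Col3a1, Lum, Mgp, Eln and Cdh11 are higher at E11.5 than at E9.5 and Ccnd2 and Igf2bp1 lower.

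Restricting the fit to cells with the epicardial set gave a larger set of slopes, but did not hold the kind of cell constant. The 2 cells with exactly 4 epicardial genes were both among the 5 set cells of E10.5 embryo 1. Their epicardial means were 1.25 and 1.78, under the highest blood cell at 1.79, and their cushion means 3.9 and 2.7. Only 3 cells each stood behind the values for E11.5 embryo 2 and E9.5 embryo 2. In the 38 cells with the set 109 of 10632 genes (1.03%) rose and 254 (2.39%) fell. Col1a1 stood at 0.59, 0.84, 3.23, 4.14, 5.04 and 5.54 (2.29 ± 0.26 per day, adjusted p = 2.57e-05), with the stages in strict order. Aldh1a2 stood at 2.09, 1.62, 2.61, 4.44, 4.87 and 5.19 (1.58 ± 0.27, adjusted p = 0.00123), also in strict order, although it is 1 of the 8 genes that chose these cells. Dcn stood at 4.33, 4.83, 4.32, 6.72, 7.55 and 7.59 (1.49 ± 0.24, adjusted p = 0.000891), and Bgn (1.39 ± 0.31) and Sparc (0.66 ± 0.13) rose too. Bnc1, an epithelial zinc finger factor that is also 1 of the 8 choosing genes, fell, standing at 3.11, 2.32, 1.19, 1.34, 0.66 and 0.60 (-1.04 ± 0.29, adjusted p = 0.0389), and Hapln1 fell by 1.25 ± 0.32 per day. Cell cycle genes fell in 5 of 27 cases (Ccnd1, Ccnd2, Ccnb2, Aurka and Birc5) and rose in 0. In the 28 cells without the set, which gave means in 4 embryos, 0 of 9640 genes were called (814 at an unadjusted p under 0.05), and the difference between the kinds of cell was not tested. In all 66 cells Aldh1a2 (0.66 ± 0.32) and Dcn (0.60 ± 0.38) had no called slope.

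In cells with the set, the calls on Col1a1, Col3a1, Aldh1a2 and Dcn held in each of the 6 fits that left out an embryo. Bgn and Sparc lost theirs without either E9.5 embryo, Hapln1 in 3 fits and Bnc1 in 5. The number of calls fell to 56 without E9.5 embryo 1, to 54 without E9.5 embryo 2 and to 225 without E10.5 embryo 2, was 23 by edgeR, Col3a1 (adjusted p = 0.0291) and Dcn (adjusted p = 0.0183) among them, and was 0 by limma within the 4 HiSeq 4000 embryos (591 at an unadjusted p under 0.05), where the slope of Dcn was 2.05 and that of Col1a1 1.61.

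The day slopes rest on few embryos, and the count of calls fell to 13 without E9.5 embryo 2 (4 cells behind its mean), fell to 4 without E11.5 embryo 1 and rose to 301 without E10.5 embryo 2. By edgeR on summed UMIs 0 genes were called (1344 at an unadjusted p under 0.05), and within the 4 embryos labelled HiSeq 4000 there were 4 calls. Within those 4 embryos the slope of Col1a1 was 0.89, that of Col3a1 1.34 and that of Lum 1.73, all uncalled. The 4 genes called there all fell. With identical cells counted once 138 slopes were called, 127 of them shared with the 151. Lum (1.84 ± 0.26, adjusted p = 0.00214), Col1a1 (1.68 ± 0.25, adjusted p = 0.00217) and Col3a1 (1.44 ± 0.19, adjusted p = 0.00214) kept their calls, whereas Col1a2 (0.97, adjusted p = 0.0555) lost its call. The slopes were not shown to be particular to these cells: the interaction with the myocyte class gave 0 calls of 13464 genes (0.0%; limma, 1365 at an unadjusted p under 0.05), with differences of 1.31 ± 0.43 for Col1a1, 0.94 ± 0.43 for Col3a1 and 1.35 ± 0.38 for Lum (adjusted p of 0.347, 0.472 and 0.315), and edgeR gave 2 calls.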

How the data were processed

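Single cells of untreated mouse embryos were profiled by a modified 3′ tag method (STRT) with UMIs. Per the labels, the submitters' processing notes name CASAVA 1.8, TopHat2 2.0.12 and HTSeq with the mm10 build; the authors deposited CPM values (UMIs scaled to a total of 1000000 in each cell, TPM in their naming), from which whole UMIs were recovered for 100% of values (within 0.05 of a UMI). Cell groups were taken from the study's cell annotation. The embryo, not the cell, was the replicate: log2(TPM/10 + 1) was averaged over the cells of an embryo with at least 3 of them, genes expressed (at least 1) in at least 3 cells were tested in limma 3.58.1 (R 4.3.3; trended empirical Bayes, Benjamini-Hochberg), and edgeR 4.0.16 on summed UMIs was an alternative. Scripts were tested on simulated data. Genes named are the 10 largest called estimates in each direction, the 15 largest differences from myocytes, and members of the lists; a few genes of the set comparison were named after their values were seen, and some genes that the rule takes in are not reported here. The members and lists were chosen with earlier results of these data known. Strand use in the counting is not given in the sources used here. No doublet caller was run, and counting intervals cover counting error only. Both classes were taken from each animal, so the embryo pairs them, and their deviations from the stage mean correlated at -0.02 to 0.25 over 13464 genes.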

Additional observations from a re-analysis of the deposited data

Results flagged for a closer look

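Of 23 sets of 6 embryo means examined for a single far value, 3 held one, where chance gives about 1 in 20. Gata4 in the 66 cells was highest in E9.5 embryo 1 at 4.93, next to 3.86. Pdlim4 was highest in E9.5 embryo 2 at 0.64, next to 0.07, and Sparcl1 in E9.5 embryo 1 at 0.69, next to 0.18.

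In cells outside the comparisons, 39 of 67 liver mesoderm-derived cells under both thresholds carried the epicardial set. A further 25 of 33 heart cells with a myocyte mean from 4.5 to under 7.5 carried it too. The liver number stands above the 0 of 181 somite cells under the same thresholds. The 33 heart cells were chosen by other limits and have no such reference. In the same hearts 5 of 16 blood cells and 25 of 126 cells with a myocyte mean of 7.5 or more had at least 4 epicardial genes.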

How the results depend on the processing

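The 497 calls of the heart against the 4 organs became 477 with the embryo as a replicate block, which pairs organs of the same animal, 486 to 545 when each embryo was left out, 1604 with log2(TPM + 1), 1842 with edgeR, 933 with stricter thresholds (mean under 3.5, fewer than 2 endothelial genes) and, chosen after seeing the data, 757 with epicardial-set heart cells only. The block changed no other call count: the interaction stayed at 0 calls. Taking the liver into the mean of the other organs gave 407 calls. The 151 day slopes became 0 with no gene filter, 13 with at least 5 cells per mean, 0 with edgeR, 4 in HiSeq 4000 embryos, 363 in epicardial-set cells, 34 in cushion-set cells and 4 to 301 when each embryo was left out. Chosen after seeing the data, they became 257 with a myocyte threshold of 7.5, 0 in cells without the epicardial set and 50 without E9.5 embryo 2 and E10.5 embryo 2. Within epicardial-set cells the 363 calls became 54 to 454 when each embryo was left out (54 and 56 without an E9.5 embryo, 225 without E10.5 embryo 2), 0 in HiSeq 4000 embryos and 23 with edgeR, all added later. The stricter thresholds left 13 cells and no day slope could be fitted. The interaction gave 2 calls with edgeR, 909 with stricter thresholds (2 heart embryos) and, added later, 2 at 7.5. The epicardial share was 68.9% in 61 cells thinned to 100000 UMIs; the cushion share was 78.8% at 3 genes, 51.5% at 5 and 76.9% under stricter thresholds. With identical cells counted once, added later, the counts were 504 against the organs, 138 day slopes and 0 for the interaction, and of the single genes followed 3 day slopes lost their call (Clca3a1, Col1a2 and Podxl). The 519 genes over the myocyte class became 994 against myocytes at 7.5, an alternative added after seeing the data. Some day slopes of single genes reversed against the fit over all the heart non-myocytes, where only 2410006H16Rik of those named next was called. In HiSeq 4000 embryos these were 2410006H16Rik (-0.32), Aldh1a2 (-0.41), Dcn (-0.25), Gpm6a (-0.41), Sema3d (-0.46) and Sparc (-0.28). In cells without the epicardial set they were Aurka (0.14), Birc5 (0.66), Ccnb2 (0.47), Sema3d (-0.036) and Sparc (-0.27). In cushion-set cells they were Sema3d (-0.011) and Sparc (-0.010). Within epicardial-set cells, where Aldh1a2, Dcn and Sparc were called, the HiSeq 4000 slopes kept their sign, uncalled, at 1.5, 2.05 and 0.44. Organ differences reversed in epicardial-set cells for Cthrc1 (-0.22) and in the other cells for Dcn (-0.065), Ezr (-0.29), Krt18 (-0.90), Krt7 (-0.17) and Sema3d (-0.12). The cause of these changes was not tested. Depth limits statements on genes near a level of 1, and 4 cells in E9.5 embryo 2 limit its means.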
